A study of Mus musculus with 9 samples.

Results

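The RUNX1(41-214) fragment was set against deletion of Runx1 in stem and progenitor cells of mouse bone marrow. The comparison takes 3 arrays of cells expressing the fragment and 3 arrays of Runx1KO cells, 6 of the 9 arrays of the study, and asks which genes are read at different levels when the fragment is present and when the Runx1 gene is deleted. It covers the 20380 probe sets with 1 gene symbol, of the 22690 on the array, and these name 12393 genes. All groups had a C57BL/6 background, and in all of them bone marrow cells were sorted as c-Kit+/Sca-1+/Lin-/IL7Ra- (KSL), a fraction that holds blood stem cells and early progenitors. Runx1KO mice were Runx1floxed/floxed MxCre+/- and were studied 3 months after poly IC, the RNA analogue that induces interferon and with it the Mx promoter driving Cre. Control mice were Runx1floxed/floxed MxCre-/- and were also studied 3 months after poly IC, so both groups carried the floxed allele. The third group received cells transduced with a retroviral vector for RUNX1(41-214) and was studied 4 months after the procedure. The labels name no poly IC for that group, do not say whether its donor cells carried the floxed allele, and do not say whether transduced cells were selected, and no transplanted group with an empty vector is among the 9 arrays. Fragment against deletion therefore cannot be told apart from transplantation, viral transduction, poly IC, time and the source of the donor cells. Mx-driven Cre also acts in cells outside the blood, and each array is a separate biological sample per the labels.

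Runx1 encodes the DNA-binding subunit of core binding factor, which pairs with Cbfb and binds DNA through its Runt domain. Residues 41 to 214 hold the Runt domain and lack the C-terminal part of the protein through which Runx1 activates or represses genes, so that the fragment can occupy DNA without the full regulatory region. In adult marrow Runx1 is known for its part in lymphoid development, platelet production and the restraint of stem and progenitor cell expansion.

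Signals are given as log2(signal + 16) after quantile normalization, a scale on which 4 is the floor and a difference of 1 is a 2-fold difference in signal plus offset. Median signals of the arrays before normalization lay between 125 and 147.1. Correlations over probe sets were 0.983 to 0.992 within RUNX1(41-214), 0.978 to 0.984 within Runx1KO and 0.971 to 0.979 between the groups. Along the leading principal component, with 31.5% of the variance, the 3 RUNX1(41-214) arrays lay on one side and the other 6 on the other. Runx1KO replicate 3 and control replicate 2 stood apart by a Gapdh 3' to 5' log2 ratio of 2.13 and 1.85, against 0.98 to 1.29 on the other arrays, a sign of shorter labelled RNA. Without these 2 arrays 93 genes passed, 80 of them among the 147 described below. Among the genes named in the main results the calls of Alas2, Ccr2, Fgf3, Gbp6, Gimap4, Grb10, Hmgn1, Il12rb1, Itga2b, Jchain, Ms4a2, Oosp1, Parm1, Pde9a, Procr, Slc4a1, Sult1a1 and Trib3 were then lost (adjusted p 0.0532 to 0.125), with differences of the same sign. Calls among the other observations were lost too. They were those of App, Apbb1, Bace1, Bmp4, Efna1, Efnb2, Ephb4, Fstl1, Inhba, Ror1, Ryk, St3gal2 and St3gal6 (adjusted p 0.0528 to 0.165). Kit, a gene of the sort, read 11.83, 11.81 and 11.51 in RUNX1(41-214) and 11.74, 11.40 and 11.77 in Runx1KO. Cd34, which the sort did not use, read 12.04, 11.94 and 12.06 and 11.93, 11.73 and 11.77. No value is given here for Ly6a, which encodes Sca-1. Kit differed by 0.08 (adjusted p = 0.912) and Cd34 by 0.21 (adjusted p = 0.61) between the groups.

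Most genes that differed between fragment and deletion read lower under the fragment. Here lower, fall and loss mean relative to Runx1KO, not to control. Of the 12393 genes, 147 (1.19%) passed an adjusted p of 0.05, with 28 higher (0.226%) and 119 lower (0.96%) in RUNX1(41-214) than in Runx1KO. Of these, 134 differed at least 2-fold and 34 at least 4-fold, and of the latter 28 were lower and 6 higher. Over all probe sets 227 of 20380 (1.11%) passed, 45 higher (0.221%) and 182 lower (0.893%). Against the shared control arrays 27 genes (0.218%) passed for Runx1KO and 449 (3.62%) for the fragment. Some genes called lower than in Runx1KO, among them Cxcl9, Bmp4 and Sult1a1 below, did not pass between fragment and control. Each gene is represented by its brightest probe set, the values were compared with limma over all 9 arrays, and p-values were adjusted by Benjamini-Hochberg over the 20380 probe sets. The median difference over all genes was 0.02 with a median standard error (SE) of 0.21. In all 147 genes the 3 arrays of one group lay apart from the 3 of the other, and the same held for 2331 of all genes (18.8%). In the plot of group means the lower genes form a band along the floor of the fragment axis, and 34 of the 119 had a fragment mean under 5, so their fold is understated. With array weights the call count rose to 329 (109 higher, 220 lower). It was 93 without the arrays of highest 3' to 5' ratio, and it lay between 61 (without RUNX1(41-214) replicate 2) and 157 (without control replicate 2) when 1 array was left out. Without Runx1KO replicates 1, 2 and 3 in turn the counts were 89, 74 and 79, and without RUNX1(41-214) replicate 1 it was 78. When the arrays were only shifted to a common median, 49 of 158 genes were higher (31%, against 19% as reported), and the median of all genes moved to 0.11.

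**Figure D1:**
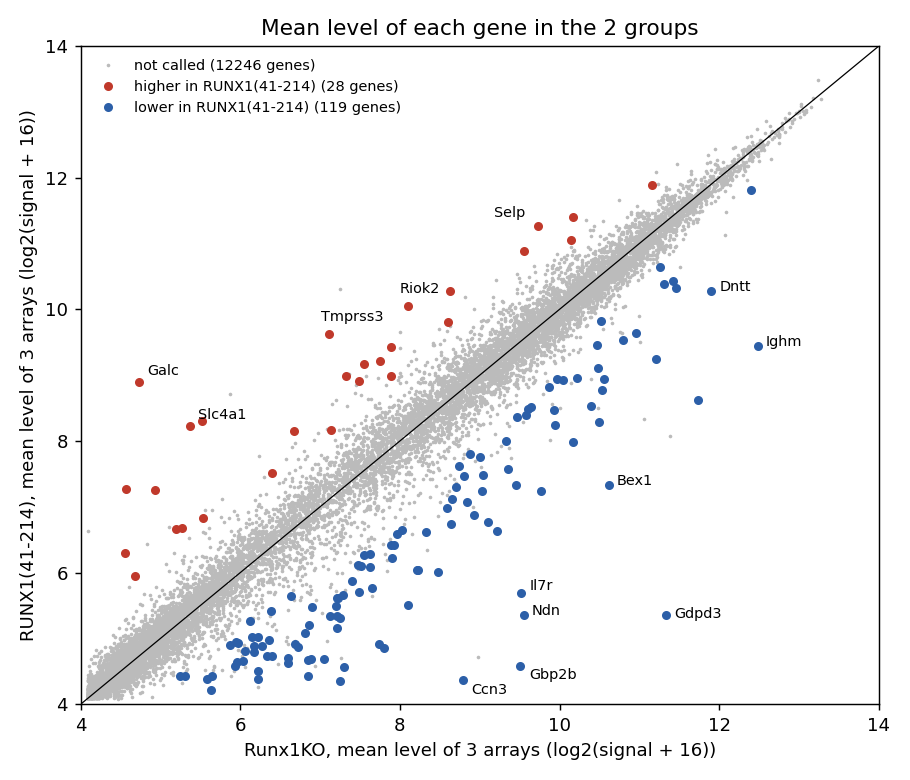
Mean level of each of the 12393 genes in Runx1KO (horizontal) and RUNX1(41-214) (vertical), both as log2(signal + 16), with the genes that passed the test coloured by direction. The 119 lower genes reach down to the floor of 4 on the vertical axis, while the 28 higher genes are fewer and lie above the diagonal.

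The fragment keeps the DNA-binding domain, and the core motif bound by Runx proteins, TGTGGT or TGCGGT, was therefore looked for on both strands in RefSeq promoter windows (GRCm38.p6, 250 bases before to 50 after a gene's start). The letters were found in the windows of 6 of 25 higher genes (24%) and 23 of 90 lower genes (25.6%) that had a window. The share was 24.6% of measured genes and 25% of all genes with a window. Lower genes had 1.42 windows per gene, against 1.27 for measured genes. By single windows the shares were 22.2% for higher, 21.9% for lower and 21% for measured genes. A match is a description of letters and not a bound site. Below are the 250 bases upstream of the start for 4 genes, those of the largest fall and the largest rise and a pair of higher genes chosen because they hold the motif, 5′ to 3′ on the gene's strand, with motif matches in capitals (ACCACA is TGTGGT on the other strand). S100a6 (chr3:90612644-90612893, + strand) rose and held 3 matches, starting 217, 145 and 79 bases before the start. Tmprss3 (chr17:31197750-31197999, - strand) rose and held 1 match at 156 bases in this window, 1 of its 2. Galc (chr12:98259460-98259709, - strand) had the largest rise of the named genes and held 0 matches. Gdpd3 (chr7:126766164-126766413, + strand) had the largest fall of all genes and held 0 matches. In Il7r, also among the largest falls, TGTGGT began 3 bases after the start.
S100a6: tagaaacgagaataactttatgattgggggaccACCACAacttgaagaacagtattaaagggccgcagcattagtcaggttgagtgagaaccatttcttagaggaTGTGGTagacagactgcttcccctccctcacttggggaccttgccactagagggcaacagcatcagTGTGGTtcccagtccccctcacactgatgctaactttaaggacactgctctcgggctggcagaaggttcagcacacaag
Tmprss3: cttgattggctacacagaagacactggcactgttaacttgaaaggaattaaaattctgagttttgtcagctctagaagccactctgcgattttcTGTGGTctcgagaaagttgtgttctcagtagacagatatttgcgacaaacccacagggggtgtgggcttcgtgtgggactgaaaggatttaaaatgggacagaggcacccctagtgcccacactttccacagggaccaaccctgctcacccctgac
Galc: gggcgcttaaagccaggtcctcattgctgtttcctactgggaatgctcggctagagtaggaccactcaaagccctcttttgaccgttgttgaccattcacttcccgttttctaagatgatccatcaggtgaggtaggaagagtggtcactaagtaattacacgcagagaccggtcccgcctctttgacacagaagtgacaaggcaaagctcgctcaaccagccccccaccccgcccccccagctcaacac
Gdpd3: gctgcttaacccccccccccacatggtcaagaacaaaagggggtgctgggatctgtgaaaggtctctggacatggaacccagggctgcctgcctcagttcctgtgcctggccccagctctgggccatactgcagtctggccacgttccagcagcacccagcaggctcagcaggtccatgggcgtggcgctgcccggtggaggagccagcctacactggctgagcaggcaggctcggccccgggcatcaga

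Runx1 itself did not pass the test between the groups. Its brightest probe set read 10.82, 10.95 and 11.06 in RUNX1(41-214), 11.20, 11.73 and 11.40 in Runx1KO and 10.73, 9.88 and 10.58 in control, a difference of -0.50 between fragment and deletion (SE 0.21, adjusted p = 0.453). Runx1KO was the highest group. None of the 5 probe sets of Runx1 passed the test, and a dim one reached 9.03 in RUNX1(41-214) replicate 3 alone against 6.16 to 7.11 on the other arrays of both groups. The position of these probes relative to the deleted exon and to the fragment is not given in the sources used here, so the values check neither the deletion nor the vector. Of 17 measured Runx partner and family genes 0 passed, with a median difference of -0.15. Lowest in p were Cbfa2t3, a corepressor, at -0.37 (adjusted p = 0.306) and Ets1, a DNA-binding partner, at -0.80 (adjusted p = 0.373).

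The largest falls under the fragment, named among genes whose higher group mean was above the median of all genes, brought several genes near the floor. Gdpd3, a phospholipase D-type enzyme of lipid metabolism, read 5.60, 5.31 and 5.18 in RUNX1(41-214), 11.35, 11.38 and 11.27 in Runx1KO and 11.03, 10.73 and 10.84 in control. The fall was -5.98 (SE 0.18, adjusted p = 1.51e-08), 63-fold. Runx1KO minus control was 0.47 (adjusted p = 0.615), and only the fragment arrays stood near the floor. For Gdpd3, and likewise for Gbp2b and Galc described below, Runx1KO minus control did not pass (adjusted p = 0.943 and 0.992 for the latter 2). Beyond a C57BL/6 background the labels do not describe the donor cells of the fragment group, so for these genes the fragment and a difference in donor background cannot be told apart.

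Ccn3, a secreted matrix protein known in blood stem cells, read 4.21, 4.50 and 4.38 in RUNX1(41-214), 8.22, 8.91 and 9.23 in Runx1KO and 6.33, 7.31 and 7.75 in control. It was lowest under the fragment, middle in control and highest after deletion, with a difference of -4.42 between fragment and deletion (SE 0.36, adjusted p = 0.000104). Hnf4a, a nuclear receptor best known in liver, read 7.26, 5.92 and 6.70, against 9.09, 9.42 and 9.16 in Runx1KO. It fell by 2.60 (adjusted p = 0.00277). Of its 3 other probe sets 2 had the same sign, and 1 of these passed. Vegfc, a growth factor for lymphatic vessels, read 7.02, 6.67 and 6.62 against 8.61, 9.25 and 9.45 and fell by 2.33 (adjusted p = 0.0014). Itsn1, an adaptor of endocytosis, was bright in all groups at 8.85, 9.16 and 9.71 against 10.94, 11.42 and 11.25 and fell by 1.96 (adjusted p = 0.000906). That no array of one group reached the other in these 4 genes follows from the naming rule and held for all 147. Their calls held in all 9 fits that left 1 array out, as did those of 48 of the 147 genes (8 higher, 40 lower).

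Other falls taken by the same rule were less steady. Smim10l1 fell by 2.20, but its other probe set had the opposite sign, as had that of Ehd3, an endosomal ATPase that fell by 2.17. Ptger2, a receptor for prostaglandin E, fell by 2.05 (adjusted p = 0.02) and lost its call without Runx1KO replicate 1 or 3 or RUNX1(41-214) replicate 2 or 3 (adjusted p 0.071 to 0.112). Myl10, a myosin light chain, fell by 2.13 (adjusted p = 0.0236) and lost it without Runx1KO replicate 1 or 2 or RUNX1(41-214) replicate 1, 2 or 3 (adjusted p 0.0777 to 0.0914). Sult1a1, a sulfotransferase, fell by 2.19 (adjusted p = 0.0346) and lost it without control replicate 3 or Runx1KO replicate 1, 2 or 3 or RUNX1(41-214) replicate 1, 2 or 3 (adjusted p 0.0578 to 0.163). Against control Sult1a1 differed by -0.89 under the fragment (adjusted p = 0.383) and by 1.30 in Runx1KO (adjusted p = 0.462). These 3 thus rest on more of the arrays than Ccn3 or Itsn1 do.

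**Figure D2:**
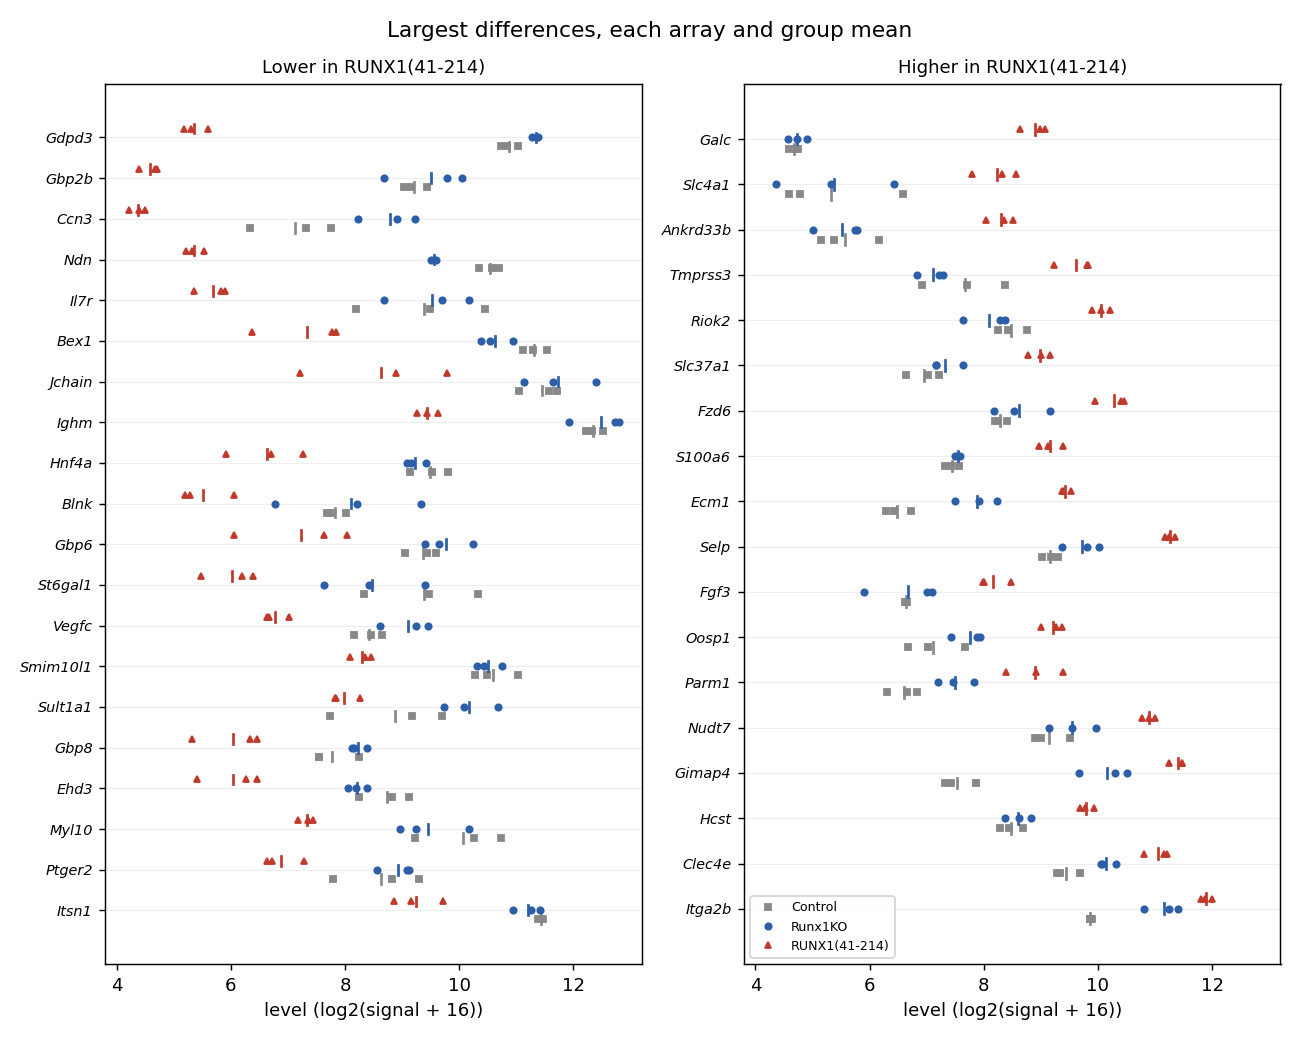
Level of each array, log2(signal + 16), for the 20 genes of largest fall (left) and the 18 genes of largest rise (right) that met the naming rule, with the group mean as a bar. Gdpd3, Gbp2b, Ccn3 and Ndn lie near the floor of 4 only under the fragment, and Galc rises from the floor only there.

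Some lymphoid genes made up one group of losses. Of 23 measured early lymphoid genes 3 fell (13%) and 0 rose, with a median of -0.29. Of 17 B cell genes 3 fell (17.6%) and 0 rose, with a median of -0.45. The differences of 8 B cell genes lay above 0 (up to 0.74) and those of 9 below. In the early lymphoid list 5 lay above 0 and 18 below. Over all genes 0.96% were called lower and the median was 0.02. The genes that fell were Il7r, Dntt and Notch1 in the first list and Ighm, Pou2af1 and Blnk in the second. Fewer cells of a type and less RNA per cell cannot be told apart in such bulk samples.

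Il7r, the receptor for interleukin 7 that lymphoid progenitors need, read 5.82, 5.36 and 5.90 in RUNX1(41-214), 10.17, 9.70 and 8.68 in Runx1KO and 10.45, 8.19 and 9.49 in control. It fell by 3.83 (SE 0.51, adjusted p = 0.00446), 14.2-fold, and was clearly read in both other groups although the sort excluded cells with surface IL7Ra. Dntt, the terminal transferase of antigen receptor rearrangement, was bright everywhere, at 10.60, 9.81 and 10.42 against 12.15, 12.15 and 11.39 and 12.42, 11.96 and 12.22 in control. It fell by 1.62 (SE 0.24, adjusted p = 0.00818), and the adjusted p was 0.052 without Runx1KO replicate 2. Dntt and Blnk are neighbours among the measured genes of their chromosome, and Blnk fell too.

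Notch1, the receptor that directs progenitors to the T lineage, read 9.63, 9.63 and 9.34 in RUNX1(41-214), 10.90, 10.70 and 10.80 in Runx1KO and 11.47, 10.91 and 11.23 in control. The fall of 1.26 (SE 0.17, adjusted p = 0.0043) held in all 9 left-out fits. No other gene of the Notch pathway passed. Of its 25 genes 1 was lower (4%, beside 0.96% of all genes) and 0 higher, with a median of 0.04.

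Ighm, the immunoglobulin mu heavy chain, read 9.63, 9.27 and 9.43 in RUNX1(41-214), 12.80, 12.73 and 11.93 in Runx1KO and 12.22, 12.32 and 12.51 in control and fell by 3.04 (SE 0.21, adjusted p = 2.27e-05). Of its 10 other probe sets, all dimmer, 1 fell with it and the others did not pass, and with the mean of all probe sets the difference was -0.79 (adjusted p = 0.193). Pou2af1, a coactivator of B cells, read 5.35, 4.99 and 4.41 against 9.04, 7.65 and 6.51 and fell by 2.82 (adjusted p = 0.0235). Blnk, the B cell linker of antigen receptor signalling, read 6.05, 5.29 and 5.20 against 9.33, 8.20 and 6.77 and fell by 2.59 (adjusted p = 0.0346). In both genes Runx1KO replicate 1 was highest and replicate 3 lowest, more than 2 log2 units apart. The call of Blnk was lost without control replicate 1 or 3 or Runx1KO replicate 1 or 2 or RUNX1(41-214) replicate 1, 2 or 3 (adjusted p 0.0614 to 0.168), and that of Pou2af1 without Runx1KO replicate 2 or RUNX1(41-214) replicate 1, 2 or 3 (adjusted p 0.054 to 0.0957).

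Of other lymphoid genes, Rag1 and Ebf1 are named after their values were seen, and Jchain as one of the largest falls. Rag1, the recombinase of antigen receptor genes, read 4.93, 4.47 and 4.74 in RUNX1(41-214), 10.42, 9.27 and 7.25 in Runx1KO and 10.25, 7.01 and 6.63 in control. The groups did not overlap, but the Runx1KO and control arrays each spread over more than 3 units, and the difference of -4.27 (SE 0.90) just missed the threshold (adjusted p = 0.0506). It passed under several alternatives, among them the fit to the 6 arrays alone (adjusted p = 0.0306) and the one without Runx1KO replicate 3 (adjusted p = 0.0307). Ebf1, an early B cell transcription factor, read 4.23, 4.17 and 4.38 against 7.49, 6.47 and 4.71 and did not pass (adjusted p = 0.345), with Runx1KO replicate 1 again highest. Jchain, the immunoglobulin joining chain, fell from 12.40, 11.65 and 11.14 to 9.79, 8.88 and 7.20 (difference -3.11, adjusted p = 0.0175), a call lost without Runx1KO replicate 1 or 2 or RUNX1(41-214) replicate 2 (adjusted p 0.0688 to 0.0799).

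The markers of mature B cells were near the floor in both groups. Pax5 lay between 4.37 and 4.80 and Ms4a1, which encodes CD20, between 5.23 and 5.81 on these 6 arrays. Summed over the 17 B cell genes, the signal was 7365 to 7880 in RUNX1(41-214), 9932 to 17500 in Runx1KO and 11580 to 13790 in control. The fragment arrays lay below all others, while the control arrays lay within the range of Runx1KO. Without Ighm, an alternative added after the data were seen, the sums were 6712 to 7101, 6245 to 10050 and 6199 to 8995 and overlapped. Without Cd24a, the brightest member, they were 2514 to 2980, 5189 to 13120 and 7528 to 8632. The fragment arrays then still lay below all others, so the gap depended on which member was left out. Whether fewer cells with B-lineage RNA passed the sort was not tested. Of 23 T and NK cell genes 0 passed, with a median of -0.02, and their summed signal was 1749 to 1975 in RUNX1(41-214), 2147 to 2748 in Runx1KO and 3082 to 3296 in control. Nkg7, a granule protein of cytotoxic cells, came nearest at -1.41 (adjusted p = 0.0907).

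**Figure D3:**
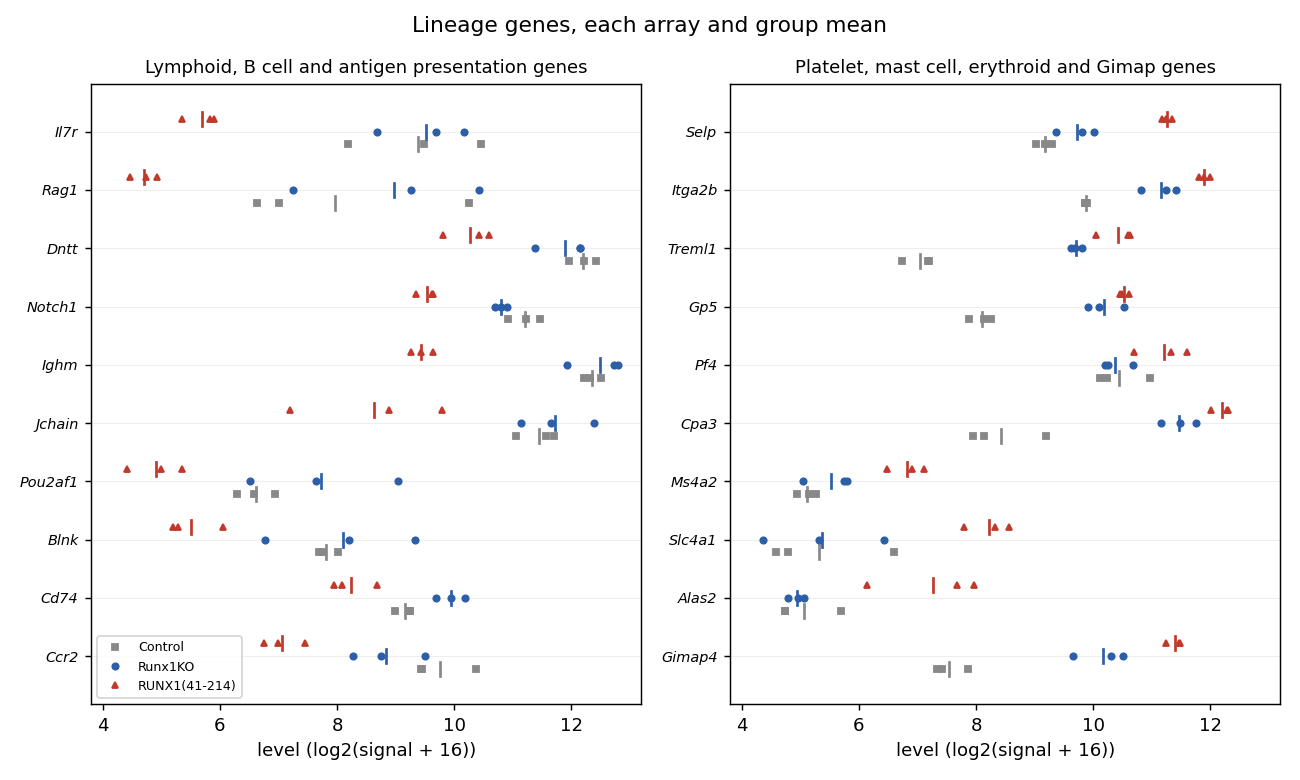
Level of each array, log2(signal + 16), for genes of the lymphoid, megakaryocyte, erythroid and mast cell lists by group, with the group mean as a bar. Il7r and Ighm are lower in every RUNX1(41-214) array than in any other array, while Itga2b, Selp and Slc4a1 are higher in every RUNX1(41-214) array.

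Ndn and the Bex genes formed another group of losses. Ndn, or necdin, an imprinted growth suppressor of stem cells that is also among the reported Runx1 targets, read 5.21, 5.32 and 5.53 in RUNX1(41-214), 9.51, 9.60 and 9.56 in Runx1KO and 10.35, 10.70 and 10.58 in control. The arrays within each group agree closely, and the difference between fragment and deletion was -4.20 (SE 0.19, adjusted p = 7.88e-07), 18.4-fold. Against control the difference was -0.99 for Runx1KO (adjusted p = 0.0816) and -5.19 for the fragment (adjusted p = 9.28e-08). Both differences use the same control arrays.

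Bex1, a small adaptor-like protein encoded on the X chromosome, read 7.85, 7.78 and 6.36 in RUNX1(41-214), 10.54, 10.38 and 10.94 in Runx1KO and 11.30, 11.11 and 11.54 in control. It fell by 3.29 (SE 0.34, adjusted p = 0.000847), with RUNX1(41-214) replicate 3 lowest. Bex4 read 5.36, 5.23 and 4.87 against 7.19, 6.63 and 7.83 and fell by 2.07 (adjusted p = 0.0065). Zcchc18, a zinc finger gene near them, fell by 1.62 (adjusted p = 0.023), a call lost without Runx1KO replicate 1 or 2 or RUNX1(41-214) replicate 1, 2 or 3 (adjusted p 0.0611 to 0.126). In all, 3 of 9 genes of this list were lower and 0 higher, with a median of -0.58, and Bex2, Bex3 and Bex6 did not pass. Since these genes were taken into a list with results of these arrays known, their count is no independent evidence.

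Of 23 imprinted genes 2 fell (8.7%, beside 0.96% of all genes) and 0 rose, with a median of -0.21. Beside Ndn this was Grb10, an adaptor that restrains growth factor signalling, which read 9.25, 8.75 and 8.85 against 10.03, 10.14 and 10.47 and fell by 1.26 (adjusted p = 0.012). Its call was lost without Runx1KO replicate 3 or RUNX1(41-214) replicate 2 (adjusted p 0.0537 to 0.0786). Only 1 of the 2 other probe sets of Grb10 had the same sign. With the mean of its probe sets Grb10 differed by -0.47 (adjusted p = 0.281). Of 22 quiescence genes and CDK inhibitors 2 fell (9.09%, beside 0.96% of all genes) and 0 rose, with a median of -0.07. These were Ndn and Egr1, an immediate early transcription factor that maintains stem cell quiescence, which read 8.36, 8.53 and 8.29 against 9.69, 9.84 and 9.22 and fell by 1.19 (adjusted p = 0.0236). The call of Egr1 was lost without Runx1KO replicate 1 or 2 or RUNX1(41-214) replicate 1, 2 or 3 (adjusted p 0.0773 to 0.106). It was the only one of 24 immediate early genes to pass (4.17%, beside 0.96% of all genes called lower). Of 32 cell cycle and DNA replication genes 0 passed, where Ccnd2 stood at -0.33 (adjusted p = 0.381) and the median at -0.05.

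Some of the guanylate-binding proteins, GTPases induced by interferon, fell under the fragment. Gbp2b read 4.70, 4.66 and 4.38 in RUNX1(41-214), 9.78, 8.67 and 10.05 in Runx1KO and 9.43, 9.03 and 9.16 in control, a fall of 4.92 (SE 0.32, adjusted p = 1.82e-05) and 30.3-fold. It was near the floor under the fragment only. Gbp6 read 8.03, 6.05 and 7.63 against 9.40, 9.65 and 10.24 and fell by 2.53 (adjusted p = 0.0179), a call lost without Runx1KO replicate 2 or 3 (adjusted p 0.0746 to 0.0751). Its neighbour Gbp8 read 6.46, 5.32 and 6.33 against 8.15, 8.13 and 8.39 and fell by 2.18 (adjusted p = 0.00714). These 2 were lower in RUNX1(41-214) replicate 2 than in its other arrays. Of 35 interferon-stimulated genes, a list without Gbp8, 2 fell (5.71%, beside 0.96% of all genes) and 0 rose, with a median of 0.06. Gbp2, Gbp3 and Gbp7, at 0.06, -0.55 and -0.13, did not pass, nor did Mx1, Irf1 and Stat2, at 0.14, -0.25 and -0.26. Runx1KO and control mice both had poly IC and both read these Gbp genes high. The part of poly IC in the difference was not tested.

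Among antigen presentation and chemokine genes single members fell. Cd74, the invariant chain of MHC class II, read 8.09, 7.95 and 8.69 in RUNX1(41-214), 10.19, 9.95 and 9.69 in Runx1KO and 9.25, 9.25 and 9.0 in control. It fell by 1.70 (SE 0.23, adjusted p = 0.00475), with control between the groups. Of 9 MHC class II genes it alone passed (11.1%, beside 0.96% of all genes called lower). Ccr2, the chemokine receptor of monocytes, read 7.0, 7.45 and 6.75 against 8.75, 8.27 and 9.50 and fell by 1.77 (adjusted p = 0.0379), a call lost without control replicate 1 or Runx1KO replicate 1 or 3 or RUNX1(41-214) replicate 1, 2 or 3 (adjusted p 0.0549 to 0.14). With the mean of its probe sets Ccr2 differed by -0.85 (adjusted p = 0.393). Ccr2 alone passed among 20 monocyte, macrophage and dendritic cell genes (5%, median -0.06) and among the 25 of the chemokine list (4%, median 0.07). Cxcl9, a chemokine induced by interferon that is outside the list and was named after its values were seen, was dim at 4.40, 4.35 and 4.54 against 5.36, 5.28 and 5.11, with 4.77, 4.51 and 4.52 in control, and fell by 0.82 (adjusted p = 0.0156), a call lost without Runx1KO replicate 1 or 2 or RUNX1(41-214) replicate 1 or 2 (adjusted p 0.0604 to 0.0827). The summed signal of the monocyte list was 7352 to 11310 in RUNX1(41-214) and 10310 to 13900 in Runx1KO, and these ranges overlap.

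Of 18 genes of the sort and of stem cell surface 2 fell, Il7r and Procr, and 0 rose (11.1% called, beside 1.19% over all genes), with a median of -0.07. Procr, the protein C receptor EPCR that marks stem cells, read 10.48, 10.49 and 10.21 in RUNX1(41-214), 11.07, 11.68 and 11.18 in Runx1KO and 11.33, 11.23 and 11.22 in control, a fall of 0.92 (SE 0.16, adjusted p = 0.023) lost without Runx1KO replicate 2 or 3 or RUNX1(41-214) replicate 1, 2 or 3 (adjusted p 0.0525 to 0.0823). Slamf1, which encodes CD150, read 9.69, 9.23 and 9.62 against 9.30, 9.80 and 9.87, and Cd48 read 12.02, 11.89 and 11.74 against 11.89, 11.18 and 11.54. Flt3, the receptor of multipotent and lymphoid progenitors, read 10.45, 10.25 and 10.04 against 10.65, 10.69 and 9.99 (adjusted p = 0.844), and the arrays overlap. For the other surface genes (Thy1, Alcam, Vwf, Cd33, Esam, Fcgr3, Prom1, Cd9, Tek, Cd27 and Cd244a) the differences lay between -0.77 and 0.55, with adjusted p from 0.319 for Thy1 to 1 for Fcgr3.

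Among genes of differentiated lineages the rises were in the megakaryocyte, erythroid and mast cell lists. Of 22 megakaryocyte and platelet genes 2 rose (9.09%, beside 0.226% of all genes) and 0 fell, with a median of 0.26. Selp, which encodes P-selectin, the adhesion molecule of platelet granules, read 11.25, 11.35 and 11.17 in RUNX1(41-214), 10.01, 9.36 and 9.81 in Runx1KO and 9.18, 9.02 and 9.31 in control. It rose by 1.53 (SE 0.18, adjusted p = 0.00259), although its other probe set differed by 0.90 and did not pass, with RUNX1(41-214) replicate 3 far above the rest. Itga2b, the platelet integrin CD41 and a reported Runx1 target, averaged 11.9 in RUNX1(41-214) (SD 0.096, n = 3, lowest array 11.80) and read 10.81, 11.41 and 11.25 in Runx1KO and 9.86, 9.89 and 9.85 in control, with no overlap between any 2 groups. Its rise over the deletion was 0.74 (SE 0.15, adjusted p = 0.0476), a call lost without control replicate 1, 2 or 3 or Runx1KO replicate 1 or 3 or RUNX1(41-214) replicate 1, 2 or 3 (adjusted p 0.0511 to 0.258). Against control Itga2b differed by 1.29 in Runx1KO (adjusted p = 0.00753) and by 2.02 under the fragment (adjusted p = 4.11e-05), with the control arrays shared.

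Other platelet genes were high in both groups and did not pass between them. Gp5, a subunit of the von Willebrand factor receptor, read 10.50, 10.46 and 10.61 against 9.90, 10.53 and 10.11, with 7.89, 8.14 and 8.26 in control. Treml1, a receptor of platelet granules, read 10.63, 10.05 and 10.60 against 9.69, 9.82 and 9.62, with 6.74, 7.19 and 7.20 in control, and Pf4, or platelet factor 4, read 11.33, 10.70 and 11.60 against 10.69, 10.20 and 10.25. Their differences were 0.34, 0.72 and 0.83, with adjusted p of 0.636, 0.228 and 0.266, and these genes were named after their values were seen. The summed signal of the 22 genes was 30790 to 34790 in RUNX1(41-214), 25300 to 26020 in Runx1KO and 16030 to 18100 in control, 3 ranges that do not overlap. Whether the share of cells with megakaryocyte RNA differs was not tested.

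Of 21 erythroid genes 2 rose (9.52%, beside 0.226% of all genes) and 0 fell, with a median of 0.01. Slc4a1, the band 3 anion exchanger of red cells, read 8.33, 8.56 and 7.80 in RUNX1(41-214) and 6.43, 5.32 and 4.37 in Runx1KO. In control it read 6.59, 4.79 and 4.59. It rose by 2.86 (SE 0.56, adjusted p = 0.0357). Of its 2 other probe sets 1 passed in the same direction and 1 had the opposite sign. Alas2, the first enzyme of red cell haem synthesis, read 6.13, 7.67 and 7.97 against 4.95, 5.06 and 4.79 and rose by 2.32 (adjusted p = 0.0236). Both spread widely, Slc4a1 over the Runx1KO arrays and Alas2 over the fragment arrays, and their calls were lost without Runx1KO replicate 2 or 3 or RUNX1(41-214) replicate 1, 2 or 3 (adjusted p 0.0687 to 0.178) and without Runx1KO replicate 1, 2 or 3 or RUNX1(41-214) replicate 2 or 3 (adjusted p 0.0743 to 0.122) respectively. Brighter erythroid genes did not pass: Car2 differed by -0.14 (adjusted p = 0.815) and Tal1 by 0.06 (adjusted p = 0.915). The list's summed signal was 14580 to 19080 against 14990 to 18500, which overlap.

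Of 14 mast cell and basophil genes 1 rose (7.14%, beside 0.226% of all genes) and 0 fell, with a median of 0.05. Ms4a2, the beta chain of the IgE receptor, read 6.47, 7.11 and 6.91 in RUNX1(41-214), 5.80, 5.04 and 5.74 in Runx1KO and 5.15, 4.93 and 5.26 in control and rose by 1.30 (adjusted p = 0.03), a call lost without control replicate 1 or 3 or Runx1KO replicate 1, 2 or 3 or RUNX1(41-214) replicate 2 or 3 (adjusted p 0.051 to 0.145). Cpa3, the mast cell carboxypeptidase, read 12.30, 12.29 and 12.01 against 11.48, 11.16 and 11.75, with 8.14, 7.95 and 9.20 in control. Its difference of 0.73 between fragment and deletion did not pass (adjusted p = 0.384), nor did Hdc, the enzyme that makes histamine, which read 9.27, 9.40 and 9.44 against 8.58, 6.78 and 9.16 (adjusted p = 0.547). The list's summed signal was 17950 to 20570 against 16140 to 17790, apart, and 12230 to 12850 in control.

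The granulocyte list had the highest median of all lists, 0.40, with 17 of 21 genes above 0, but 0 passed. Ms4a3, a marker of granulocyte and monocyte progenitors, read 9.44, 9.97 and 9.55 against 8.96, 7.01 and 8.03 (difference 1.65, adjusted p = 0.319). Cxcr2, the neutrophil chemokine receptor, read 9.02, 8.98 and 8.97 against 7.71, 6.79 and 8.24 (difference 1.41, adjusted p = 0.141). Prtn3, a granule protease, differed by 0.40 (adjusted p = 0.432) and Mpo, myeloperoxidase, by -0.10 (adjusted p = 0.918). The Runx1KO arrays spread more than the fragment arrays in Ms4a3 and Cxcr2, with replicate 2 lowest. The summed signals of 17090 to 21180 and 13090 to 20370 overlap.

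S100a6, or calcyclin, a calcium-binding protein whose promoter is printed above, read 8.97, 9.40 and 9.12 in RUNX1(41-214), 7.55, 7.59 and 7.5 in Runx1KO and 7.57, 7.43 and 7.33 in control. It rose by 1.62 (SE 0.20, adjusted p = 0.00297), 3.07-fold, and the control arrays overlapped those of Runx1KO. It was the only one of 15 S100 and annexin genes to pass (6.67%, beside 0.226% of all genes called higher). Of the 15, though, 13 lay above 0 and the median was 0.34. Gimap4, a GTPase of lymphocytes, read 11.48, 11.47 and 11.25 in RUNX1(41-214), 10.31, 10.52 and 9.66 in Runx1KO and 7.86, 7.33 and 7.42 in control. The groups form a series in which control is lowest and the fragment highest, and the rise of 1.24 over the deletion (SE 0.24, adjusted p = 0.0305) was lost without Runx1KO replicate 1 or 3 or RUNX1(41-214) replicate 1, 2 or 3 (adjusted p 0.0702 to 0.168). Of 5 Gimap genes 1 rose (20%, beside 0.226% of all genes) and 0 fell, with a median of -0.04.

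The largest rise was that of Galc, the lysosomal galactosylceramidase, which read 8.99, 8.64 and 9.07 in RUNX1(41-214), 4.58, 4.91 and 4.72 in Runx1KO and 4.60, 4.71 and 4.74 in control. It amounted to 4.17 (SE 0.19, adjusted p = 7.88e-07), 17.9-fold, and came from 1 of its 3 probe sets, since the other 2 stayed between 4.63 and 5.50 on the 6 arrays. Ankrd33b, an ankyrin repeat gene, read 8.36, 8.05 and 8.51 against 5.78, 5.01 and 5.75 and rose by 2.79 (adjusted p = 0.00112). Tmprss3, a membrane serine protease known from hearing, read 9.80, 9.23 and 9.83 against 6.82, 7.22 and 7.28 and rose by 2.51 (adjusted p = 0.00461). Riok2, a kinase of small ribosomal subunit maturation, read 10.21, 10.05 and 9.89 against 8.28, 7.64 and 8.38 and rose by 1.96 (adjusted p = 0.00279). In these 4 genes control lay nearer to the deletion than to the fragment.

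Other rises by the naming rule were Slc37a1, a sugar phosphate transporter (1.66, adjusted p = 0.00651), and Ecm1, an extracellular matrix protein (1.54, adjusted p = 0.00979, and 0.0722 without RUNX1(41-214) replicate 2). Slc37a1 lies next to Pde9a, a cyclic GMP phosphodiesterase that went the other way (-1.39, adjusted p = 0.0222), a call lost without Runx1KO replicate 2 or 3 or RUNX1(41-214) replicate 1 or 2 (adjusted p 0.0715 to 0.127). Hcst, the signalling adaptor DAP10, rose by 1.19 (adjusted p = 0.0161), and Clec4e, the Mincle receptor of myeloid cells, rose by 0.91 (adjusted p = 0.0305). Nudt7, a peroxisomal hydrolase, rose by 1.34 (adjusted p = 0.0185). These 3 calls were lost without Runx1KO replicate 2 or 3 or RUNX1(41-214) replicate 1, 2 or 3 (adjusted p 0.0506 to 0.112), without Runx1KO replicate 1, 2 or 3 or RUNX1(41-214) replicate 1 or 2 (adjusted p 0.0563 to 0.184) and without Runx1KO replicate 1 or 2 or RUNX1(41-214) replicate 1, 2 or 3 (adjusted p 0.0611 to 0.101). Oosp1 and Parm1 rose by 1.46 and 1.41 with adjusted p of 0.0305 and 0.0434, and were called in 3 and 1 of the 9 left-out fits. Fgf3, a growth factor, rose by 1.48 (adjusted p = 0.0456) and was called in 0 of them, with Runx1KO replicate 2 lowest and adjusted p from 0.0555 to 0.241.

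Of 31 haematopoietic transcription factors 1 fell, Egr1 (3.23%, beside 0.96% of all genes), and 0 rose, with a median of -0.12. Mllt3, a regulator of stem cell maintenance named after its values were seen, read 9.08, 8.59 and 8.45 against 9.41, 9.94 and 10.01 and just missed the threshold at -1.08 (adjusted p = 0.0566), with 8.28, 8.57 and 8.32 in control. It passed without quantile normalization (adjusted p = 0.0429). Gata2 differed by -0.10 (adjusted p = 0.81). Of 21 Hox and self-renewal genes 0 passed, with a median of -0.12. Hoxa9 stood at -0.47 (adjusted p = 0.136) and Hoxb2 at -1.48 (adjusted p = 0.0886, and 0.0305 without RUNX1(41-214) replicate 3). Of 27 reported Runx1 targets Ndn fell and Itga2b rose (7.41% called, beside 1.19% of all genes), with a median of 0.01. Mpo and Pf4 were among the 25 that did not pass.

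Receptors and stress genes gave single calls. Of 31 cytokine and growth factor receptors Il7r fell and Il12rb1 rose (6.45% called, beside 1.19% of all genes). Il12rb1, a subunit of the receptor for interleukin 12, read 7.66, 7.36 and 7.5 against 6.43, 6.47 and 6.30 and rose by 1.10 (adjusted p = 0.0288), a call lost without Runx1KO replicate 1, 2 or 3 or RUNX1(41-214) replicate 1, 2 or 3 (adjusted p 0.0797 to 0.134). Of 33 niche adhesion genes Selp and Itga2b rose (6.06%, beside 0.226% of all genes) and 0 fell, with a median of -0.09. Plk2, a p53 target kinase, read 5.03, 4.94 and 4.80 against 6.14, 6.96 and 6.94, with 5.57, 5.52 and 5.87 in control. It fell by 1.76 (adjusted p = 0.00443), 1 of 19 in its list (5.26%, beside 0.96% of all genes). Trib3, a pseudokinase of the stress response, fell by 1.11 (adjusted p = 0.0346), 1 of 24 endoplasmic reticulum stress genes (4.17%). Hmgn1, a nucleosome-binding protein, fell by 0.59 (adjusted p = 0.0303), 1 of 21 chromatin genes (4.76%). Trib3 was called in 2 and Hmgn1 in 3 of the 9 left-out fits.

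The remaining lists had 0 calls. They were NF-kB pathway (22 genes, median -0.08, Ltb nearest by p at -0.84), Bcl2 family (14 genes, 0.10, Pmaip1 at 1.17), ribosome biogenesis (24 genes, 0.04, Ubtf at 0.46), cytosolic ribosomal proteins (23 genes, 0.05, Rpl35 at 0.27), oxidative phosphorylation (28 genes, 0.10, Cox6c at 0.31) and glycolysis (24 genes, -0.02, Egln1 at -0.42). At an unadjusted p under 0.05 in limma, 1265 of all 12393 genes passed. Of 19 stromal and endothelial genes 0 passed, with a median of 0.02 and Tie1, an endothelial receptor, nearest at -1.14 (adjusted p = 0.131). Their summed signal was 3144 to 3480 in RUNX1(41-214) and 4136 to 5058 in Runx1KO, which do not overlap. The 4 sex-linked genes (Xist, Eif2s3y, Kdm5d and Uty) differed by -0.39 to 0.11, and both Xist and the Y-linked genes were read on all 6 arrays.

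**Figure D4:**
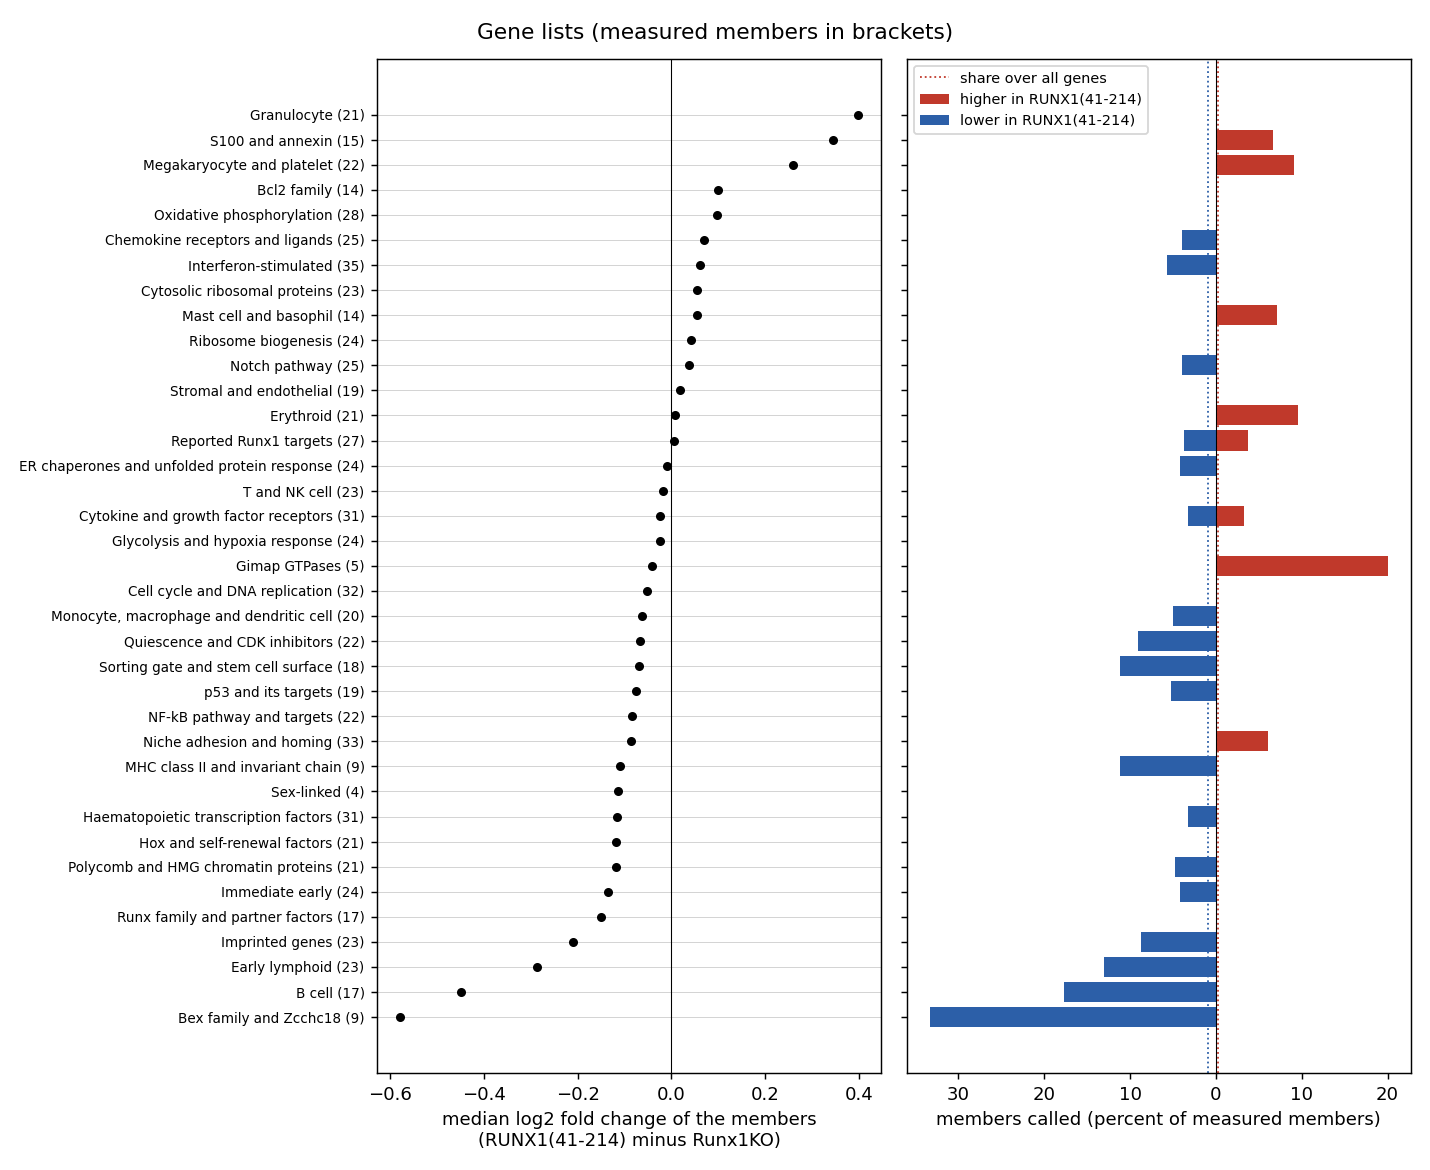
Median log2 difference, RUNX1(41-214) minus Runx1KO, of each gene list (left) and the percent of its measured members that passed the test in each direction (right), with the shares over all genes as dotted lines. The Bex, B cell and early lymphoid lists lie lowest with medians of -0.58, -0.45 and -0.29, and the granulocyte list lies highest at 0.40 with 0 calls.

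The count of calls moved with the choice of arrays. In the plot of counts by setting, each left-out array of either compared group shortens both bars, while the left-out control arrays leave 126 to 157 genes. None of the 147 genes changed sign under any setting that gave it a value. Of the 147, 70 had more than 1 probe set, in 23 of these another probe set passed in the same direction, and in 25 some other probe set had the opposite sign.

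**Figure D5:**
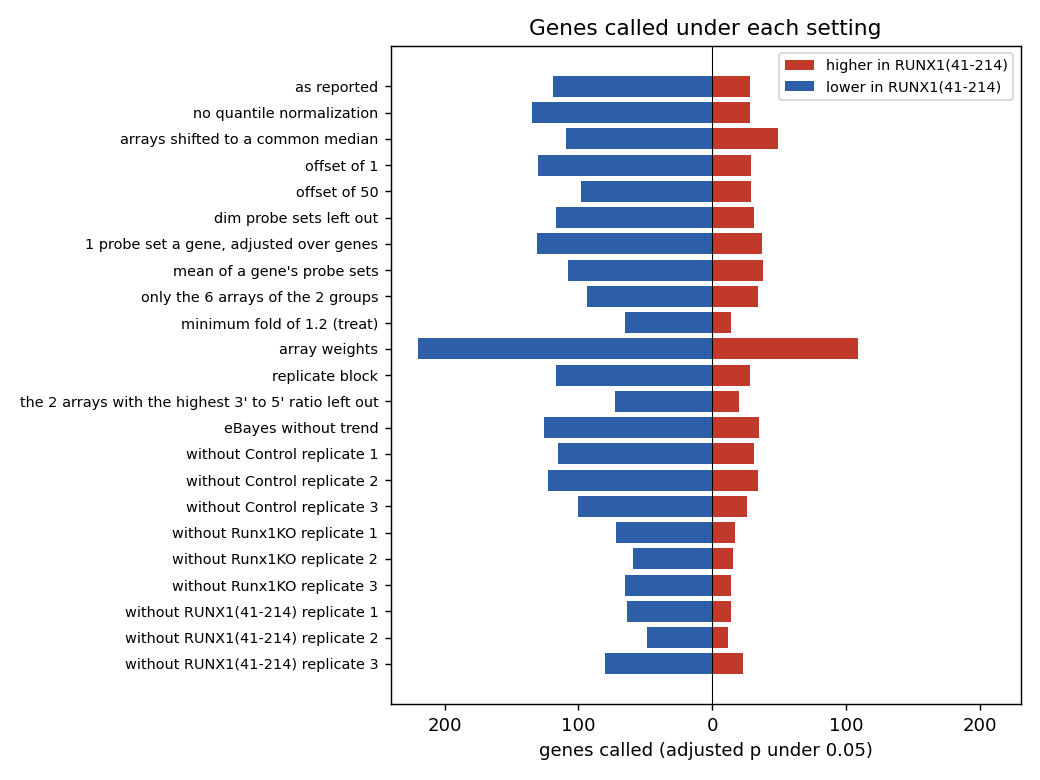
Number of genes that passed the test under each setting, lower in RUNX1(41-214) to the left and higher to the right. Counts run from 61 without RUNX1(41-214) replicate 2 to 329 with array weights, and lower genes outnumber higher genes under every setting shown.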

How the data were processed

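The authors deposited 1 signal intensity per probe set and array, on a linear scale, in the series table. Per the labels' protocols, RNA of the sorted cells came from Qiagen microcolumns and was biotin-labelled in 2 cycles (Affymetrix), whose amplification makes levels of different genes incomparable, so levels were compared between arrays within a probe set. Summed deposited signals of a list add probe sets of unequal response and are descriptive. How probes were summarised or scaled is not given in the sources used here. Set aside were the 64 control probe sets. Signals were taken as log2(signal + 16), which shrinks differences of dim genes, and quantile normalized over the 9 arrays. Of the remaining 22626 probe sets, 20380 had 1 gene symbol, 691 several and 1555 none, and 20351 of the 20380 were found in the RefSeq table (GRCm38.p6), which changed 0 symbols. In R 4.3.3, limma 3.58.1 estimated group means from all 9 arrays together (lmFit, eBayes with trend, 6 residual and 5.31 prior degrees of freedom). Tests were two-sided, with Benjamini-Hochberg adjustment over the 20380 probe sets and a threshold of 0.05. A gene was represented by its probe set of highest mean. The procedure was tested on simulated data.

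The comparison, its genes and the 37 lists (696 measured genes) were chosen with earlier results of these data known. Lists are described by counts and medians. Named are Runx1, up to 20 largest rises and falls that passed without overlap of arrays and with the higher mean above the median of all genes (7.95), up to 6 members per list that passed or else the 2 of lowest p, the 2 brightest of each list of other cell types, neighbours that passed, and the sort and sex-linked genes. Alternatives were no quantile normalization, a common median, offsets of 1 and 50, dim probe sets left out, adjustment over genes, gene means over probe sets, the 6 arrays alone, a minimum fold of 1.2, array weights, a replicate block, no variance trend, the 2 arrays of highest 3' to 5' ratio left out and each array left out. The number of arrays limits the precision.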

Additional observations from a re-analysis of the deposited data

How the results depend on the processing

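Differences kept their sign for all 147 genes under 21 of the 22 alternatives, and for the 122 with a value when dim probe sets were left out. With a minimum fold of 1.2 (treat, a stricter test by construction) 79 genes passed (14 higher, 65 lower), or 120 probe sets (20 and 100). With array weights 329 genes passed (109 and 220), or 528 probe sets (171 and 357). With arrays shifted to a common median 49 genes and 80 probe sets were higher. Without the 2 arrays of highest 3' to 5' ratio 93 genes passed, 73 of them lower, or 138 probe sets (25 and 113). Leaving out 1 array gave 61 to 157 genes called (12 to 34 higher, 49 to 123 lower), or 86 to 245 probe sets (16 to 59 higher, 70 to 186 lower). The cause was not tested, beyond the smaller number of arrays in these fits. The 9 other alternatives gave 127 to 168 genes. Same-numbered arrays of the 2 groups correlated at -0.0494, -0.00499 and -0.18 in their deviations, and other pairs at -0.106 to 0.148. With 3 arrays per group these values cannot decide whether samples were paired, and no label pairs them. With a replicate block 145 genes passed (28 higher, 117 lower), 126 of them shared with the 147. With 3 arrays per group an exact permutation test cannot go below 0.1. Levels near the floor understate folds.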

Other observations

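Outside the lists above, 119 of the 147 genes that passed the test belonged to none of the lists, and the following were grouped after their values were seen, so their grouping supports nothing. Wnt secretion and reception genes moved in both directions. Wls, the carrier that brings Wnt proteins to the cell surface, read 9.18, 9.18 and 8.97 in RUNX1(41-214), 10.32, 10.44 and 10.68 in Runx1KO and 10.38, 9.76 and 10.08 in control and fell by 1.37 (SE 0.19, adjusted p = 0.00521). Porcn, the acyltransferase that lipid-modifies Wnt proteins, fell by 1.59 (adjusted p = 0.00446). Among receptors, Fzd8 read 4.37, 4.22 and 4.46 against 7.14, 7.28 and 7.31 and fell by 2.90 (adjusted p = 4.64e-05), while Fzd6 read 10.41, 10.47 and 9.96 against 8.18, 8.53 and 9.16 and rose by 1.65 (adjusted p = 0.0107). The Wnt coreceptors Ror1 and Ryk fell by 1.21 and 1.53 (adjusted p = 0.00945 and 0.0465). Calls of Wls, Porcn and Fzd8 held in all 9 left-out fits, those of Ror1, Fzd6 and Ryk in 8, 6 and 1.

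The amyloid precursor App, read at 8.53, 9.52 and 8.79 against 10.27, 10.32 and 11.09, fell by 1.61 (adjusted p = 0.0305). Its relative Aplp2, its protease Bace1, its sorting receptor Sorl1 and its binding protein Apbb1 fell by 0.61, 1.12, 1.53 and 1.59, with adjusted p from 0.0305 for App to 0.0425 for Apbb1. None of these 5 calls held in more than 4 of the 9 left-out fits. The other probe sets of Aplp2 and Apbb1 shared the sign of the brightest one. For App 1 of 3 others did, and it passed too, and for Bace1 2 of 3 did. The only other probe set of Sorl1 had the opposite sign. When probe sets were averaged, all 5 calls were lost (adjusted p from 0.0715 for App to 0.501 for Aplp2). Ephrin system genes Epha2, Ephb4, Efna1 and Efnb2 fell by 1.66, 0.88, 1.28 and 0.99 (adjusted p 0.0354, 0.0185, 0.0379 and 0.0482). They were called in 2, 4, 1 and 2 of the 9 left-out fits, and Efna1 and Efnb2 lost their calls when arrays were shifted to a common median (adjusted p 0.0505 and 0.0663). Genes of TGF-beta family signalling fell too: Bmp4 by 0.96, Inhba by 1.22, Fstl1 by 1.24 and the protease Bmp1 by 1.38 (adjusted p 0.0116, 0.03, 0.0474 and 0.0185), called in 8, 3, 1 and 4 left-out fits. With the mean of its probe sets Bmp1 differed by -0.45 (adjusted p = 0.234). Bmp4 differed from the shared control arrays by -0.28 under the fragment (adjusted p = 0.456) and by 0.68 in Runx1KO (adjusted p = 0.14). The sialyltransferases St6gal1, St3gal2 and St3gal6, which cap glycans, fell by 2.46, 1.08 and 1.51, with adjusted p of 0.0495, 0.0453 and 0.023, and were called in 3, 2 and 5 left-out fits. The other probe set of St6gal1 had the opposite sign, and its call was lost without the variance trend (adjusted p = 0.0713).

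Some genes that passed lay close together in RefSeq gene order (GRCm38.p6). On chromosome 17 Tmprss3, Slc37a1 and Pde9a lay within 3 measured genes, the first 2 higher and Pde9a lower in RUNX1(41-214). On chromosome 19 Blnk and Dntt were next to each other, with Pdlim1 5 measured genes from Blnk, and all fell. On chromosome 7 Sult1a1 and Gdpd3 lay 4 measured genes apart and both fell, and on the X chromosome Bex4, Bex1 and Zcchc18 lay within 9 measured genes and all fell. Slc4a1 and Itga2b, both higher, lay 4 measured genes apart on chromosome 11. How often such neighbours arise among all genes was not tested.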
